A study of Mus musculus with 12 samples.

Results

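The comparison was between a *Stella*-knockout line of mouse female germline stem cells (KO) and the line labelled as its control (KO-con), with 3 libraries in each group, 6 of the 12 libraries of the series. All cells were of strain C57BL/6 at passages above 20 and grew on inactivated STO fibroblast feeder cells in medium with serum, leukemia inhibitory factor, epidermal growth factor, basic fibroblast growth factor and GDNF. The KO line received lentiviral CRISPR guides against *Stella* (listed as Dppa3) and was 1 randomly chosen clone grown from a single cell. How KO-con was made is not given in the sources used here. Clone, guide and line therefore cannot be told apart from the loss of *Stella*. The 3 libraries of a group may be technical repeats, so that every p-value measures only the spread between these libraries. The table lists 41388 RefSeq transcripts, of which 9457 had enough counts to be tested in KO against KO-con. Library totals were 8433576 to 11482760 counts in KO and 8426772 to 11352217 in KO-con, and levels are given as CPM, counts scaled by library size. A level worth 3 counts was 0.259 to 0.359 CPM and is used as the floor, which allows for counting error alone. Where a gene has several listed transcripts, the levels and fold changes given for it are those of 1 transcript, unless said to be summed. This holds also where it is not repeated, as for Lif, Cish, Bcl2, Rgs12 and Tph1.

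*Stella* was targeted in its coding sequence on chromosome 6. The guides are shown because they define the KO group. Both had 1 exact match in mm9, and the capitals mark the PAM.
sgRNA-1: tgcggttccgtagactgcgcCGG
sgRNA-2: aagggtccgcactttgttgtCGG
The first lies at chr6:122578671-122578693 on the minus strand and the second at chr6:122578764-122578786 on the plus strand, both within an exon of *Stella*. *Stella* had 0 counts in each of the 3 KO libraries and also 0 in each of the 3 KO-con libraries, which allows up to 0.341, 0.259 and 0.271 CPM in KO and 0.305, 0.266 and 0.359 CPM in KO-con. The libraries therefore gave no check of the knockout at the RNA level, since the transcript was not detectable in the control line either. In the same series *Stella* had 347, 371 and 285 counts in the *Stella*-overexpressing line and 0 in each library of that line's empty-vector control. The counting could thus detect the transcript.

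The labelled cell type was set against marker lists. Of 30 germ cell and female germline stem cell genes, 23 had at most 3 counts in every one of the 6 libraries, and so had 10 of the 15 with a single listed transcript. Stra8 and Dppa5a, each with 1 listed transcript, were at 0 in every library. Ddx4, Pou5f1, Dazl and Sall4 were at or near 0 too, but each has several listed transcripts, and such genes were tested less often: 22.9% of genes with 2 or more listed transcripts had a tested transcript against 42.9% of genes with 1. No reading is made from their zeros. Ifitm3, also called Fragilis, was the germline marker with the most counts, at 94.5 ± 21.5 CPM in KO against 119 ± 13.5 in KO-con (here and below mean ± SD, n = 3 libraries). Genes shared by blood cells were measured at high levels, with a summed level of 7029 to 8123 CPM in KO and 6614 to 7032 CPM in KO-con. Among them, Spi1, the transcription factor PU.1, was at 109.7 ± 10.3 CPM in KO against 93.5 ± 7.84 in KO-con. Dock2, a Rac activator of leukocytes, was at 1681 ± 82.0 CPM in KO against 1597 ± 63.0 in KO-con. Fibroblast genes, which STO feeder cells express, summed to 3206 to 3973 CPM in KO and 3331 to 3553 CPM in KO-con, with overlapping groups. B, T and natural killer lymphocyte genes summed to 0.569 to 0.777 CPM in KO and 0.355 to 2.16 CPM in KO-con, with 18 of 20 genes at or under 3 counts in every library. In these bulk libraries fewer cells of a type and less RNA per cell cannot be told apart.

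Cytokines act on cells through receptors that switch on Janus kinases and STAT transcription factors. These factors then induce both survival genes such as the PIM kinases and feedback inhibitors such as CISH and SOCS proteins. Toll-like, TNF and interleukin receptors also release NF-kB, which induces its own inhibitor, and growth factor receptors switch on the MAP kinase cascade, whose early response genes are transcription factors and phosphatases. In blood cells these pathways set survival, division and the output of further cytokines. *Stella* itself is a maternal effect factor best known for protecting DNA methylation in the early embryo.

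Transcripts changed in both directions in nearly equal numbers. At an adjusted p under 0.05 (edgeR quasi-likelihood test, Benjamini-Hochberg adjustment), 551 transcripts (5.83% of those tested) were higher in KO and 564 (5.96%) were lower, and these are the transcripts called higher or lower below. With an absolute log2 fold change over 1 as well, 78 (0.825%) were higher and 83 (0.878%) lower. Most changes were small: the median size of a called change was 0.45 on the log2 scale among the higher and 0.42 among the lower, and 314 of the 551 and 336 of the 564 changed by under 0.5. All 3 KO libraries lay above all 3 KO-con libraries for 1507 transcripts (15.9%) and below them for 1375 (14.5%). With library totals in place of TMM factors 700 were called higher and 448 lower, and the median of all transcripts moved from 0.01 to 0.04. The higher calls numbered 341 without KO replicate 2 and 280, 306 and 335 without KO-con replicate 1, 2 and 3, and the lower calls numbered 374 without KO replicate 2 and 333 and 358 without KO-con replicate 1 and 2. Of 346 called genes that the lists or the rule for named genes picked out, 201 kept their call whichever library was left out, and so did every gene named below as called without a remark. With Over-con, the empty-vector control of the overexpressing line, in place of KO-con, 287 of 9363 transcripts (3.07%) were called higher in KO and 450 (4.81%) lower. The calls against KO-con and Over-con share the KO libraries and are not independent of each other, so for most named genes the log2 fold changes against both are given. The gene lists below were chosen with earlier results of these data known. Their counts of calls therefore describe the lists and are no test of a pathway. Each count is to be set beside the shares over all transcripts given above for the same control.

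**Figure D1:**
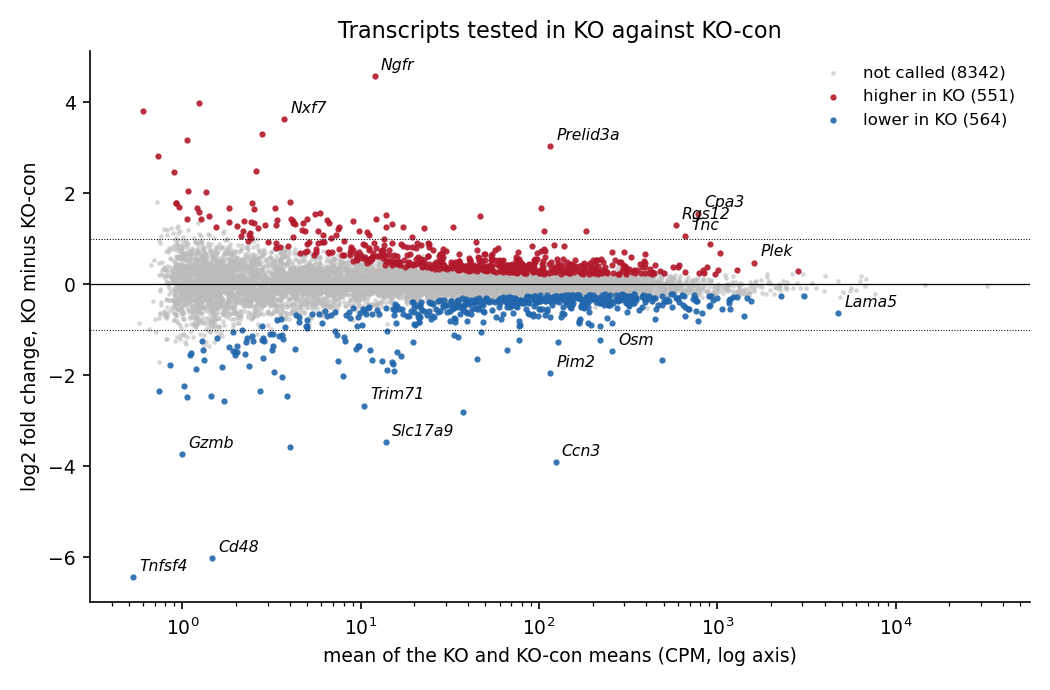
Each point is 1 of the 9457 transcripts tested, placed by its mean level (CPM, log axis) and its log2 fold change in KO against KO-con (edgeR); red points were called higher, blue points lower, and dotted lines mark a log2 fold change of 1 in either direction. Most called points lie between the dotted lines, and *Ccn3*, *Ngfr* and *Prelid3a* stand far outside them; the values of *Tnfsf4*, *Cd48* and *Gzmb* depend on the prior count because KO had at most 2 counts of them per library.

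The ligands called were mostly lower in KO. Osm, oncostatin M, a cytokine of the interleukin 6 family made by blood cells, had 126, 130.3 and 153 CPM in KO against 392, 362 and 382 in KO-con, and was lower in KO with a log2 fold change of -1.47 (SE 0.08, edgeR, adjusted p = 5.45e-09). Every KO library was far below every KO-con library. Lif, its neighbour on chromosome 11 and the gene of leukemia inhibitory factor, was also lower, with 2.96, 2.33 and 1.71 CPM in KO against 6.91, 4.96 and 6.83 in KO-con and a log2 fold change of -1.42 (SE 0.25, edgeR, adjusted p = 0.00147). Of 35 ligand transcripts tested, 2 were called higher and 7 lower, with a median log2 fold change of -0.10 against 0.01 for all transcripts, and without KO-con replicate 2 the higher calls numbered 1. Against Over-con 2 were called higher and 9 lower. The interferon-inducible chemokine Cxcl10 was lower, at 6.05 ± 0.402 CPM in KO against 22.2 ± 5.93 in KO-con. Tnfsf11, the gene of the osteoclast factor RANKL, was lower at 1.03 ± 0.211 CPM in KO against 3.67 ± 0.364 in KO-con. Tgfb1, transforming growth factor beta 1, was lower at 207 ± 14.5 CPM in KO against 284 ± 21.1 in KO-con. The matricellular gene Ccn3, on the list of matrix genes, had the lowest adjusted p of all transcripts, with a log2 fold change of -3.90 (SE 0.09, edgeR, adjusted p = 4.81e-14). In the opposite direction, Il13, an interleukin of allergic inflammation, was higher in KO, with 6.94, 9.15 and 13.5 CPM in KO against 4.07, 4.96 and 5.03 in KO-con. The 3 KO libraries of Il13 were spread, but the lowest lay above the highest KO-con library. Against Over-con the calls held for Tnfsf11 (-2.0), Ccn3 (-5.42) and Il13 (1.29). They did not hold for Lif (-0.67), Cxcl10 (-0.23) or Tgfb1 (-0.18).

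Most receptors called were lower. Of 29 cytokine and growth factor receptor transcripts, 1 was called higher and 7 lower (median -0.16), and without KO replicate 2, KO-con replicate 1 or KO-con replicate 3 the lower calls numbered 4. Il2ra, the alpha chain of the interleukin 2 receptor, had 131, 109 and 153 CPM in KO against 299, 362 and 262 in KO-con, and was lower with a log2 fold change of -1.23 (SE 0.12, edgeR, adjusted p = 5.43e-06). Il18rap, the accessory chain of the interleukin 18 receptor, was lower at 546 ± 63.4 CPM in KO against 767 ± 3.45 in KO-con. Tnfrsf21, a death receptor, was lower at 106 ± 2.11 CPM in KO against 164 ± 21.1 in KO-con. Il21r, the interleukin 21 receptor, was lower at 17.7 ± 1.83 CPM in KO against 26.3 ± 1.14 in KO-con. Ifngr2, Il13ra1 and Epor, receptor chains for interferon gamma, interleukin 13 and erythropoietin, were called lower with smaller log2 fold changes of -0.30, -0.29 and -0.45. Ifngr2 lost its call without KO replicate 2, KO-con replicate 1 or KO-con replicate 3. Il13ra1 lost it without any library but KO replicate 1, and Epor without any library but KO replicate 3. Csf2ra, the alpha chain of the GM-CSF receptor, was the member called higher (log2 fold change 0.43), and it lost its call without KO replicate 2, KO-con replicate 1 or KO-con replicate 3. Against Over-con Il13ra1 was called lower (-0.45). Not called there were Il18rap (-0.10), Tnfrsf21 (0.04), Il21r (0.39), Ifngr2 (0.02), Epor (-0.46) and Csf2ra (0.30).

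Genes that STAT factors induce were mostly called lower in KO or not at all. Of 27 transcripts of the JAK-STAT pathway and its targets, Osm and Lif included, 1 was called higher and 8 lower, with a median of -0.22. Without KO replicate 2, KO-con replicate 2 or KO-con replicate 3 the higher calls numbered 0. Pim2, a kinase that promotes survival, had 39.5, 45.9 and 55.7 CPM in KO against 204, 154 and 191 in KO-con, and fell with a log2 fold change of -1.95 (SE 0.12, edgeR, adjusted p = 2.25e-08). Its relative Pim1 had 136, 135 and 131 CPM in KO against 254, 227 and 247 in KO-con on 1 of its 2 listed transcripts, with a log2 fold change of -0.85 (SE 0.07, edgeR, adjusted p = 8.78e-07). In both genes the KO-con libraries lay well above the KO libraries. Pim3 was lower by less, at 82.4 ± 6.82 CPM in KO against 109 ± 6.59 in KO-con. The feedback inhibitor Cish had 56.0, 55.3 and 57.4 CPM in KO against 96.3, 98.9 and 101 in KO-con, with a log2 fold change of -0.81 (SE 0.08, edgeR, adjusted p = 3.53e-06). Socs3, another feedback inhibitor, had 154, 175 and 126 CPM in KO against 297, 273 and 288 in KO-con, with a log2 fold change of -0.92 (SE 0.10, edgeR, adjusted p = 1.25e-05). Bcl2, the anti-apoptotic regulator, is on the list of apoptosis genes and was lower at 645 ± 23.3 CPM in KO against 993 ± 40.9 in KO-con. The call for Stat5b, higher at 3.02 ± 0.525 CPM in KO against 1.33 ± 0.772 in KO-con on 1 of its 3 listed transcripts, was lost without KO replicate 2, KO-con replicate 2 or KO-con replicate 3. Cdkn1a, the cell cycle inhibitor p21, was called lower and lost its call without any library but KO replicate 2. Against Over-con, 2 members of the list were called higher and 3 lower. Pim2 was then higher in KO with a log2 fold change of 0.92 and Pim1 with 0.37, both called. Osm was at 0.14 and Cish at 0.31, not called. Socs3 stayed lower, at -0.75, and so did Il2ra, at -1.03. Pim3 (-0.15), Bcl2 (0.06) and Stat5b (0.94) were not called against Over-con.

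**Figure D2:**
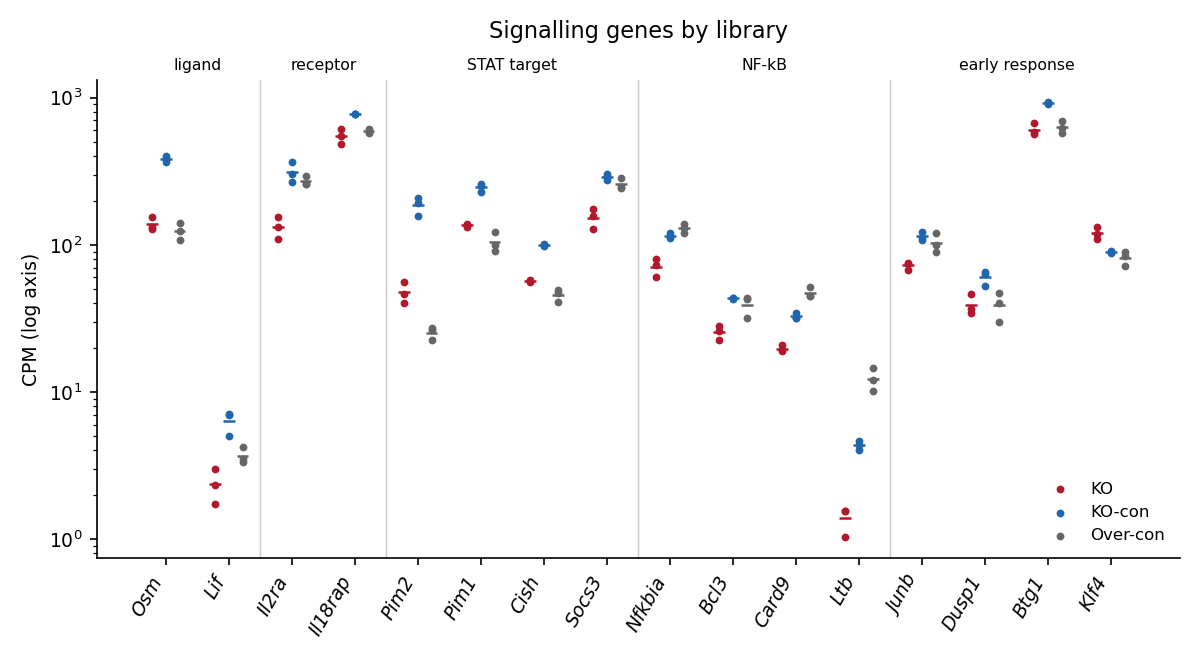
CPM (log axis, normalised over all 12 libraries) of 16 signalling genes in the 3 KO (red), 3 KO-con (blue) and 3 Over-con (grey) libraries; points are libraries and short lines are means. KO lies below KO-con for every gene shown but *Klf4*, while for *Osm*, *Pim2*, *Pim1* and *Cish* the Over-con mean lies below that of KO and for *Nfkbia*, *Card9* and *Ltb* the Over-con libraries lie above KO-con.

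NF-kB genes were called lower in KO or not at all. Of 17 transcripts of the pathway tested, 0 were called higher and 8 lower by edgeR, with a median of -0.34 and 0 higher at an unadjusted p under 0.05 or by DESeq2. Against Over-con 1 was called higher and 8 lower (median -0.34). Nfkbia, the inhibitor that NF-kB induces, had 72.1, 79.4 and 59.5 CPM in KO against 118, 114 and 109 in KO-con, with a log2 fold change of -0.69 (SE 0.10, edgeR, adjusted p = 0.00019). Bcl3, an atypical inhibitor family member, had 25.5, 27.9 and 22.4 CPM in KO against 42.5, 42.1 and 43.2 in KO-con, with a log2 fold change of -0.75 (SE 0.10, edgeR, adjusted p = 0.000184). Card9, an adaptor that carries signals from lectin receptors, had 18.7, 20.6 and 19 CPM in KO against 33.6, 31.6 and 31.5 in KO-con, with a log2 fold change of -0.73 (SE 0.10, edgeR, adjusted p = 0.000293). No KO library of these 3 genes reached the lowest KO-con library. Ltb, lymphotoxin beta, was low in both groups and lower in KO, at 1.37 ± 0.300 CPM in KO against 4.30 ± 0.322 in KO-con. Birc3, an inhibitor of apoptosis, was lower at 88.0 ± 6.73 CPM in KO against 114 ± 2.19 in KO-con. The subunits Nfkb1 and Rela were not called, with log2 fold changes of 0.01 and -0.09, whereas the subunit Rel was called lower (-0.58) with all libraries and not without KO-con replicate 1. Without KO-con replicate 1 the list had 5 lower calls. Against Over-con, Nfkbia (-0.87), Bcl3 (-0.63), Card9 (-1.26), Ltb (-3.13) and Birc3 (-0.57) were called lower and Rel (-0.45) was not called.

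Promoters were read for 4 of these lower genes to show where matches to the binding motifs of the pathways lie. For Nfkbia and Ltb the capitals mark matches to a kappaB motif (GGG, then ACT, AAT or GAT, then TTCC), for Socs3 a STAT motif (TTCNNNGAA) and for Dusp1 the cyclic AMP response element (TGACGTCA), each searched on both strands of the 250 bases before the start of the gene, so that a match on the other strand appears as its reverse complement. The sequences are those of RefSeq on GRCm38.p6, 5′ to 3′ along the gene.
Nfkbia: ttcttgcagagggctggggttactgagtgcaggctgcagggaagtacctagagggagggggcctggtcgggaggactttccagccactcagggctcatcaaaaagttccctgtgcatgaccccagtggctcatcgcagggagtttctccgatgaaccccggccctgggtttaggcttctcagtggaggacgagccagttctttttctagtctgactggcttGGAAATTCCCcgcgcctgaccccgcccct
Ltb: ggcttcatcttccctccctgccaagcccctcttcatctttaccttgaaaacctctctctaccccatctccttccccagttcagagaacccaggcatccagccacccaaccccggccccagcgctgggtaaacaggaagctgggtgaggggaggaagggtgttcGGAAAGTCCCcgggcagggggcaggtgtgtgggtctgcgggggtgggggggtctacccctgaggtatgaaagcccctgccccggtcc
Socs3: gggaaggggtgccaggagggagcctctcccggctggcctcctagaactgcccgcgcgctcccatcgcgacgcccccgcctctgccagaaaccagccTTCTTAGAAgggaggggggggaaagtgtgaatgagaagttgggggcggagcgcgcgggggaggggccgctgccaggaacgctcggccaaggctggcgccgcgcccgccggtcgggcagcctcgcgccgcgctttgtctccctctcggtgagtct
Dusp1: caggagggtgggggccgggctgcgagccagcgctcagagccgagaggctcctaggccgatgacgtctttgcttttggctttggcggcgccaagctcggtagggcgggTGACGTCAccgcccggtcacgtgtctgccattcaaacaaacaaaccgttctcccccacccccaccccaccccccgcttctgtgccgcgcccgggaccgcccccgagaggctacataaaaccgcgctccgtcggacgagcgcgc
Nfkbia lies at chr12:55492648-55492897 on the minus strand, Ltb at chr17:35194257-35194506 on the plus strand, Socs3 at chr11:117969367-117969616 on the minus strand and Dusp1 at chr17:26508473-26508722 on the minus strand. A kappaB match was found for 3 of the 8 lower NF-kB genes (Ltb, Nfkbia and Rel) and for 0.374% of 27025 genes with a promoter of that length. A STAT match was found for 1 of 7 lower JAK-STAT genes with a promoter in the table and for 8.13% of all. Among 11 lower early response genes with a promoter sequence 1 held the cyclic AMP element (1.77% of all) and 0 held an AP-1 motif (TGAGTCA or TGACTCA, 5.16% of all). An E2F motif (TTTGGCGC, TTTCCCGC or TTTGGCGG) was found for 2 of 8 higher replication genes with a promoter sequence and for 1.99% of all. The 2 genes were Pola1 and Clspn, and Clspn lost its call without KO replicate 2 or KO-con replicate 3. Of 14 higher mitosis genes with a promoter sequence 9 held CCAAT (37.5% of all) and 5 held TTTGAA, the letters of the cell cycle homology region (18.3% of all). A match is only a run of letters and says nothing of binding in these cells. The lists were made of pathway members and known targets, which may hold such motifs whether or not they change. Members not called were not counted apart, and the genes compared with were all those with a promoter, expressed or not. The shares therefore say nothing of why the genes were called.

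More early response genes and feedback regulators of the MAP kinase cascade were called lower than higher. Of 30 transcripts, 2 were called higher (1 without KO-con replicate 1 or 2) and 12 lower, with a median of -0.25. Against Over-con 4 were called higher and 9 lower (median -0.20). Junb, an AP-1 subunit, had 74.5, 74.0 and 66.8 CPM in KO against 119.6, 110.1 and 107 in KO-con, with a log2 fold change of -0.65 (SE 0.08, edgeR, adjusted p = 6.73e-05). Dusp1, a phosphatase that switches MAP kinases off, had 35.8, 34.5 and 45.9 CPM in KO against 51.3, 62.6 and 64.9 in KO-con, with a log2 fold change of -0.62 (SE 0.12, edgeR, adjusted p = 0.00261). Zfp36, tristetraprolin, which destabilises cytokine messenger RNAs, was lower at 24.2 ± 2.97 CPM in KO against 37.1 ± 4.93 in KO-con. Btg1, an antiproliferative regulator, was lower at 601 ± 58.2 CPM in KO against 908 ± 18.1 in KO-con. Ier2, an early response gene, was lower at 38.6 ± 4.78 CPM in KO against 57.8 ± 0.564 in KO-con. Atf3, a stress-induced transcription factor, had a log2 fold change of -0.41, Dusp5 of -0.59 and Fosl2 of -0.31. Klf4, a zinc finger transcription factor, was called higher with 108, 118 and 132 CPM in KO against 85.7, 90.2 and 88.0 in KO-con. Fos and Egr1 were not called, with log2 fold changes of -0.17 and -0.45. Against Over-con, Dusp1, Btg1 and Ier2 were not called, with log2 fold changes of -0.01, -0.05 and -0.26. Junb (-0.51), Zfp36 (-0.97), Atf3 (-0.75), Dusp5 (-0.57), Fosl2 (-0.33) and Klf4 (0.56) kept direction and call.

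**Figure D3:**
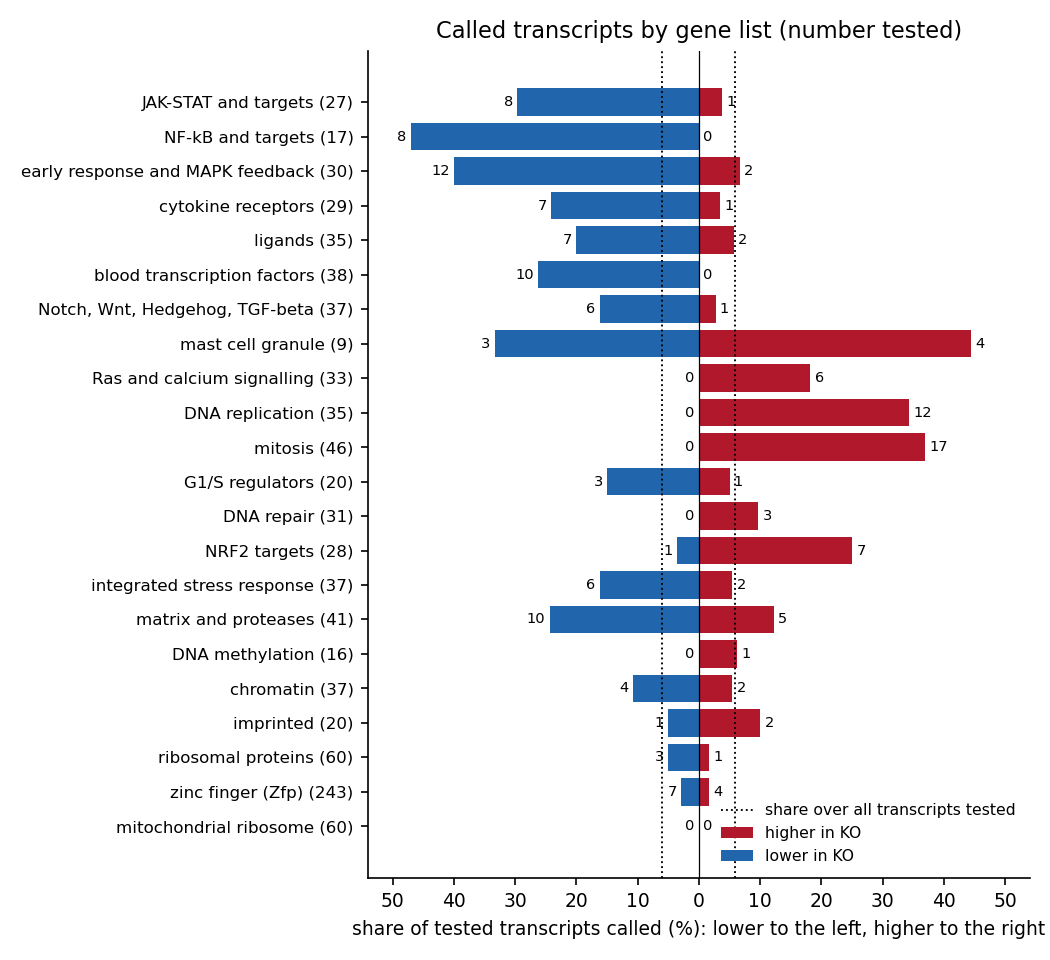
Share of tested transcripts called higher (red, to the right) or lower (blue, to the left) in KO against KO-con for 22 gene lists, with the number called beside each bar and the number tested in brackets. The NF-kB and early response lists reach furthest to the left and the mast cell granule, mitosis and DNA replication lists furthest to the right, and dotted lines mark the shares over all transcripts, 5.83% higher and 5.96% lower.

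Blood cell transcription factors were called in 1 direction. Of 38 transcripts, 0 were called higher and 10 lower by edgeR (median -0.14), with 5 higher at an unadjusted p under 0.05 and 0 by DESeq2. Without KO-con replicate 1 the lower calls numbered 6, and without KO replicate 1 the higher calls numbered 2. Id2, an inhibitor of helix-loop-helix factors, had 182, 178 and 187 CPM in KO against 356, 306 and 326 in KO-con, with a log2 fold change of -0.85 (SE 0.07, edgeR, adjusted p = 1.34e-06). Ikzf2, the zinc finger factor Helios, was lower at 124 ± 11.3 CPM in KO against 173 ± 5.97 in KO-con. Lyl1, a helix-loop-helix factor of early blood cells, was lower at 113 ± 18.9 CPM in KO against 159 ± 10.2 in KO-con. Cebpd, a factor of inflammatory responses, was lower at 34.1 ± 3.17 CPM in KO against 49.7 ± 6.75 in KO-con. Onecut3, a homeobox factor on the same list, was lower at 4.72 ± 0.259 CPM in KO against 9.70 ± 0.826 in KO-con. Spi1 was not called (log2 fold change 0.23). Against Over-con 2 members were called higher and 3 lower. Lyl1 was then higher in KO, at 0.54, and Id2 was not called, at -0.20. Prdm1, the factor BLIMP1 that is also a primordial germ cell gene, was low in both groups and lower in KO, at 0.310 ± 0.108 CPM in KO against 1.82 ± 0.132 in KO-con. Ikzf2 (0.01), Cebpd (-0.42) and Onecut3 (-0.12) were not called against Over-con, and Prdm1 had too few counts to be tested there. The level of Prdm1 in Over-con was 0.675 ± 0.130 CPM (normalised over all 12 libraries), nearer to KO than to KO-con.

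Notch pathway genes were among the lower transcripts. Of 37 transcripts of the Notch, Wnt, Hedgehog and TGF-beta pathways, 1 was called higher (2 without KO replicate 1) and 6 lower (3 without KO replicate 2), with a median of -0.04. Lfng, a glycosyltransferase that modifies Notch receptors, had 20.8, 21.8 and 22.8 CPM in KO against 72.6, 64.0 and 66.8 in KO-con, with a log2 fold change of -1.63 (SE 0.09, edgeR, adjusted p = 1.07e-08). The receptor Notch2 was lower at 542 ± 47.5 CPM in KO against 741 ± 17.6 in KO-con. The target Hes1 was called lower (log2 fold change -0.94) except without KO replicate 2 or KO-con replicate 3. Dtx4, an E3 ligase of the pathway, was higher at 149 ± 6.69 CPM in KO against 108 ± 2.71 in KO-con. Hhip, the Hedgehog decoy receptor, was lower at 28.5 ± 3.61 CPM in KO against 50 ± 2.83 in KO-con. Against Over-con, Lfng was lower (-0.57), Notch2 was not called (-0.25), and Hhip and Hes1 were called higher in KO (1.21 and 1.65). Dtx4 was not called (-0.19).

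Surface molecules of immune cells were called in both directions. Of 30 transcripts of integrins, tetraspanins and immune surface receptors, 3 were called higher and 6 lower (median -0.09). Pdcd1, the receptor PD-1, was lower at 68.5 ± 10.5 CPM in KO against 108 ± 9.59 in KO-con. Pdcd1lg2, its ligand PD-L2 and not on the list, had 9.10, 8.03 and 8.12 CPM in KO against 21.6, 21.5 and 27.4 in KO-con, with a log2 fold change of -1.48 (SE 0.14, edgeR, adjusted p = 5.57e-06). Itgb3, the beta 3 integrin, was lower at 83.5 ± 16.4 CPM in KO against 134 ± 9.09 in KO-con. Itga2b, the alpha chain it pairs with in platelets, was higher at 325 ± 18.3 CPM in KO against 233 ± 21.4 in KO-con. Havcr2, the receptor TIM-3, was higher at 72.7 ± 8.70 CPM in KO against 51.6 ± 3.17 in KO-con. Only 1 lower transcript of the list changed by over 1 on the log2 scale. Kir3dl1, Kir3dl2, Jaml, Fgl2 and Lrrc32, given next, all did, so at most 1 of them is on the list. They do not illustrate its counts. The neighbours Kir3dl1 and Kir3dl2 on the X chromosome, close paralogs between which reads may be split, were lower. Kir3dl1 was at 5.13 ± 0.490 CPM in KO against 13.7 ± 1.96 in KO-con and Kir3dl2 at 5.47 ± 0.384 CPM in KO against 14 ± 0.952 in KO-con. Jaml, a junctional adhesion molecule of leukocytes, was lower at 6.50 ± 1.16 CPM in KO against 24.3 ± 0.943 in KO-con. The secreted immune regulator Fgl2 fell by 1.67 on the log2 scale. Lrrc32, the receptor GARP that holds latent TGF-beta, was lower at 3.11 ± 0.467 CPM in KO against 12.7 ± 0.805 in KO-con. Against Over-con the calls held for Pdcd1 (-0.79), Pdcd1lg2 (-1.18), Itgb3 (-1.77), Kir3dl1 (-1.47) and Kir3dl2 (-1.10). They held for Fgl2 (-1.0) as well, and did not hold for Itga2b (0.28), Havcr2 (-0.05), Jaml (-0.44) or Lrrc32 (0.78).

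Mast cell granule transcripts were split. Of 9 tested, 4 were called higher and 3 lower (1 lower without KO replicate 2, KO-con replicate 2 or KO-con replicate 3). The protease Cpa3, carboxypeptidase A3, rose by 1.55 on the log2 scale. Ctsg, cathepsin G, had 236, 253 and 273 CPM in KO against 115, 102 and 121 in KO-con, with a log2 fold change of 1.17 (SE 0.08, edgeR, adjusted p = 9e-08). Serpinb1a, an inhibitor of neutrophil proteases, had 1127, 1007 and 1395 CPM in KO against 591, 673 and 654 in KO-con, with a log2 fold change of 0.88 (SE 0.10, edgeR, adjusted p = 3.08e-05). Cma1, the mast cell chymase, was low and higher in KO, at 3.77 ± 1.46 CPM in KO against 1.11 ± 0.645 in KO-con. Gzmb, granzyme B, went the other way, with 2, 0 and 2 counts in KO against 15, 21 and 18 counts in KO-con. This was a ratio of 14.4 between KO-con and KO after scaling by depth (95% exact interval 5.32 to 54.8, for counting error only). Of the enzymes and receptors of mast cells, 2 of 10 transcripts were called higher and 1 lower. Of the 23 genes on that list 11 had at most 3 counts in every library, as had 7 of 17 granule genes. Among genes with 1 listed transcript these were 5 of 13 on each list. The receptor chain Fcer1a, Mrgprb2 and the tryptase Tpsab1, each with 1 listed transcript, were at 0 in every library. Slc18a2, the vesicular monoamine transporter, was higher at 92.0 ± 9.39 CPM in KO against 62.7 ± 4.67 in KO-con. Tph1, which makes serotonin, was lower at 16.1 ± 2.34 CPM in KO against 26.3 ± 3.49 in KO-con. Hdc, which makes histamine, was called higher (log2 fold change 1.30) but not without KO replicate 2, KO replicate 3, KO-con replicate 1 or KO-con replicate 3. The receptor chain Fcer1g was not called (-0.05). In summed level the granule list was 2784 to 3338 CPM in KO and 1610 to 1729 CPM in KO-con. Against Over-con, Cpa3, Ctsg, Serpinb1a and Cma1 were called higher (0.54, 0.68, 0.41 and 3.41), and Slc18a2 and Tph1 were not called (-0.19 and 0.11). Hdc was called higher (1.35).

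Markers of other blood cells were called in both directions. Macrophage genes summed to 433 to 435 CPM in KO and 323 to 349 CPM in KO-con, and 3 of 7 transcripts were called higher. Among these, Tlr4, the endotoxin receptor, was at 174 ± 19 CPM in KO against 127 ± 9.68 in KO-con. Fcgr1, an antibody receptor, was at 203 ± 15.9 CPM in KO against 156 ± 7.26 in KO-con. Tlr4 and Fcgr1 gave most of the summed level in both groups. Of the 24 macrophage genes 14 had at most 3 counts in every library, among them 7 of the 16 with 1 listed transcript. C1qa, C1qb, Ccr2 and Marco, each with 1 listed transcript, were at 0 in every library. Called lower by edgeR were 0 of the 7 transcripts (2 at an unadjusted p under 0.05). Of 4 erythroid and megakaryocyte transcripts tested, 1 was called higher, Itga2b, and 2 lower (median -0.24), Epor and Vwf, the platelet adhesion protein von Willebrand factor (14.2 ± 1.83 CPM in KO against 22.9 ± 3.95 in KO-con). Epor lost its call without any library but KO replicate 3, which left 1 lower. The summed level of this list was 347 to 384 CPM in KO and 284 to 314 CPM in KO-con, of which Itga2b alone gave 304 to 339 CPM and 219 to 258 CPM. Of 23 transcripts shared by blood cells, 4 were called higher (2 without KO-con replicate 1) and 2 lower (1 without KO replicate 2, KO-con replicate 1 or KO-con replicate 2). Plek, pleckstrin, a protein kinase C substrate of platelets and leukocytes, had 1945, 1632 and 2054 CPM in KO against 1236, 1485 and 1329.7 in KO-con, with a log2 fold change of 0.47 (SE 0.09, edgeR, adjusted p = 0.0029). Hcls1, an actin regulator, had 214, 248 and 282 CPM in KO against 175, 175 and 166 in KO-con. Against Over-con Plek was higher (0.49) and Hcls1 lower (-0.34). Ras and calcium signalling genes had 6 of 33 transcripts called higher and 0 lower by edgeR (2 lower at an unadjusted p under 0.05, 0 by DESeq2). They had 2 higher calls without KO replicate 3 or KO-con replicate 1, 3 higher without KO replicate 2 or KO-con replicate 2 or 3, and 2 lower without KO replicate 1. They were led by Prkcb, protein kinase C beta, at 8.25 ± 2.36 CPM in KO against 2.75 ± 0.309 in KO-con on 1 of its 2 listed transcripts. Rgs18, a regulator of G protein signalling in platelets, was at 192 ± 25.0 CPM in KO against 144 ± 6.36 in KO-con. Against Over-con 2 were called higher and 2 lower. Not called against Over-con were Tlr4 (0.33), Fcgr1 (0.10), Vwf (-0.66), Prkcb (0.31) and Rgs18 (0.10).

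Genes of DNA replication were called higher in KO or not at all. Of 35 transcripts, 12 were called higher and 0 lower by edgeR (0 lower at an unadjusted p under 0.05 or by DESeq2), with a median of 0.31 and 34 of 35 estimates above 0. Over all transcripts 4825 of 9457 estimates were above 0. Members of a list may change together, so their signs are not independent of each other. DESeq2 called 9 higher. Rfc2, a subunit of the clamp loader, had 126, 126 and 135 CPM in KO against 79.0, 83.4 and 68.8 in KO-con, with a log2 fold change of 0.74 (SE 0.08, edgeR, adjusted p = 2.37e-05). Rrm2, the small subunit of ribonucleotide reductase, had 38.8, 36.8 and 55.0 CPM in KO against 26.6, 27.4 and 28.7 in KO-con. Rrm1, the large subunit, was at 86.8 ± 1.26 CPM in KO against 65.3 ± 0.876 in KO-con. Pola1 and Pole, the catalytic subunits of DNA polymerases alpha and epsilon, had log2 fold changes of 0.43 and 0.46. The helicase subunits Mcm2 and Mcm4 were called higher by less (0.32 and 0.31) and lost their calls without any library but KO replicate 1, and Pcna was not called (0.06). Without KO replicate 2 the list had 7 higher calls.

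Mitotic genes, too, were called higher or not at all. Of 46 transcripts, 17 were called higher and 0 lower by edgeR (0 lower at an unadjusted p under 0.05 or by DESeq2), with a median of 0.35. Bub1b, a spindle checkpoint kinase, had 26.9, 32.6 and 32.9 CPM in KO against 19.6, 16.8 and 15.9 in KO-con, with a log2 fold change of 0.82 (SE 0.12, edgeR, adjusted p = 0.000416). Mki67, the proliferation marker Ki-67, had 173, 144 and 173 CPM in KO against 116, 116 and 101 in KO-con, with a log2 fold change of 0.55 (SE 0.09, edgeR, adjusted p = 0.000595). Top2a, topoisomerase 2 alpha, had 178, 165 and 167 CPM in KO against 129, 120.1 and 129.7 in KO-con, with a log2 fold change of 0.43 (SE 0.07, edgeR, adjusted p = 0.000849). In each of the 3 genes the KO libraries lay above the KO-con libraries. Aurkb and Incenp, partners in the chromosomal passenger complex, were both higher. Aurkb was at 13.3 ± 2.12 CPM in KO against 7.16 ± 1.06 in KO-con and Incenp at 66.6 ± 7.12 CPM in KO against 46.0 ± 2.79 in KO-con. Cenpu, a centromere protein, was at 9.54 ± 0.50 CPM in KO against 3.74 ± 0.596 in KO-con. Ndc80, a kinetochore protein, was at 12.1 ± 1.37 CPM in KO against 7.4 ± 0.339 in KO-con. The largest estimate was of Mad1l1, a checkpoint protein, at 1.64 on 1 of its 4 listed transcripts. The regulators Cdk1, Ccnb1, Plk1 and Foxm1 were not called, with log2 fold changes of 0.22, 0.06, 0.17 and 0.33. Without KO-con replicate 2 or KO-con replicate 3 the list had 11 higher calls in each case.

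The cell cycle result depended on the control line. Against Over-con 0 of 35 replication transcripts were called in either direction by edgeR (1 higher and 0 lower at an unadjusted p under 0.05, median 0.03). Of 46 mitotic transcripts 1 was called higher, Mad1l1, and 0 lower (0 at an unadjusted p under 0.05, median 0.17). Rfc2 then had a log2 fold change of 0.07, Rrm2 of 0.05, Mki67 of -0.01 and Top2a of 0.12. Of the other replication and mitosis genes named, Mad1l1 was at 1.87 and the rest were not called, with estimates between -0.15 (Mcm4) and 0.48 (Cenpu). Of 20 regulators of the G1/S transition, 1 was called higher (2 without KO replicate 1 or 3) and 3 lower against KO-con. Rb1, the retinoblastoma protein that restrains S phase entry, was higher at 149.8 ± 16.8 CPM in KO against 101 ± 2.98 in KO-con. Ccnd2, cyclin D2, was lower at 836 ± 29.7 CPM in KO against 1061 ± 6.66 in KO-con. Its kinase Cdk6 was lower at 352 ± 6.63 CPM in KO against 437 ± 13.3 in KO-con. Rb1 and Ccnd2 kept their direction and call against Over-con, at 0.84 and -0.43, and Cdk6 was not called, at 0.23. DNA repair genes had 3 of 31 transcripts called higher, and 0 without KO replicate 2 or any 1 of the KO-con libraries.

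**Figure D4:**
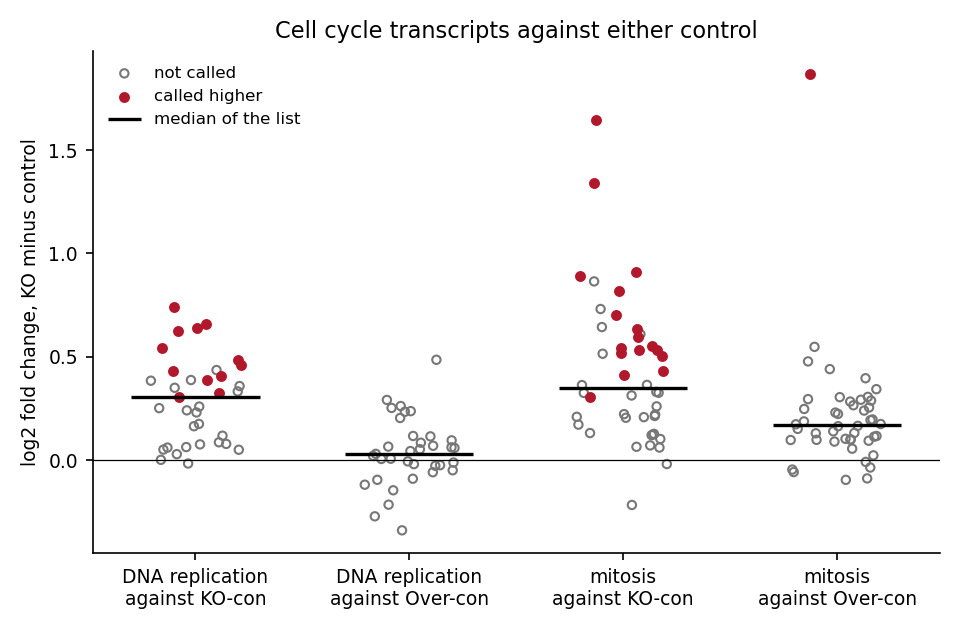
Log2 fold change of each tested transcript of the DNA replication (35) and mitosis (46) lists in KO against KO-con and in KO against Over-con; filled red points were called higher, open points were not called, and black lines are medians. The medians are 0.31 and 0.35 against KO-con and 0.03 and 0.17 against Over-con.

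Lists of metabolic and stress genes are set beside the shares over all transcripts, 5.83% called higher and 5.96% lower. The cholesterol, respiratory chain and glycolysis lists held 1 or 2 calls in each direction, near those shares. In cholesterol synthesis 1 of 16 transcripts was called higher and 1 lower, in the respiratory chain 2 of 34 higher and 1 lower, and in glycolysis and hypoxia 2 of 24 higher and 1 lower. Fatty acid synthesis had 0 of 16 called higher by edgeR (1 at an unadjusted p under 0.05, 0 by DESeq2) and 1 lower. Of 18 heat shock transcripts 0 were called by edgeR or DESeq2 (2 higher and 0 lower at an unadjusted p under 0.05). With 1 library left out these counts ran from 0 to 2 in either direction, except 5 lower in the respiratory chain without KO replicate 3. Of 28 transcripts of NRF2 targets and antioxidant enzymes, 7 were called higher and 1 lower (2 lower without KO replicate 1 or 3), with a median of 0.09. Slc48a1, a heme transporter, had 293, 323 and 345 CPM in KO against 207, 183 and 196 in KO-con, with a log2 fold change of 0.71 (SE 0.08, edgeR, adjusted p = 1.73e-05). Hmox1, heme oxygenase 1, was higher at 442 ± 23.7 CPM in KO against 339.9 ± 17.9 in KO-con. Cat, catalase, was higher at 243 ± 19.7 CPM in KO against 184 ± 11.2 in KO-con, and Gstm1, a glutathione transferase, at 116 ± 17.7 CPM in KO against 78.8 ± 6.12 in KO-con. Sod2, the mitochondrial superoxide dismutase, which NF-kB also induces, was lower at 191 ± 13.8 CPM in KO against 241 ± 4.71 in KO-con. Against Over-con 3 were called higher and 0 lower (edgeR, 2 lower at an unadjusted p under 0.05), Slc48a1 at 0.34 and Gstm1 at 0.59 among them. Of 37 transcripts of the amino acid and unfolded protein responses, 2 were called higher and 6 lower (median -0.14), and 1 higher without KO replicate 2 or any 1 of the KO-con libraries. Ddit4, an inhibitor of the kinase mTOR, was lower at 74.8 ± 12.2 CPM in KO against 122 ± 18.6 in KO-con. Mthfd2, a mitochondrial folate enzyme, was lower at 389.8 ± 43.1 CPM in KO against 533 ± 32.9 in KO-con. Nupr1, a stress-induced regulator, was lower at 148 ± 12.8 CPM in KO against 211 ± 9.01 in KO-con but higher against Over-con (0.38). Aldh1l2, another mitochondrial folate enzyme, was higher at 701 ± 39.4 CPM in KO against 519 ± 29.7 in KO-con. Of the genes named, Ddit4 (-1.22) and Aldh1l2 (0.59) kept direction and call against Over-con. Hmox1 (0.24), Cat (0.22), Sod2 (-0.25) and Mthfd2 (-0.12) were not called there.

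Solute carriers had 11 of 161 transcripts called higher and 12 lower, and 7, 6, 5 and 6 higher without KO replicate 2 and KO-con replicate 1, 2 and 3. These counts were near the shares over all transcripts, 5.83% higher and 5.96% lower, so the family as a whole did not stand out. The vesicular nucleotide transporter Slc17a9 had 2.16, 2.68 and 1.98 CPM in KO against 27.5, 21.5 and 27.3 in KO-con, with a log2 fold change of -3.46 (SE 0.18, edgeR, adjusted p = 3.26e-09). KO held a small part of the control level in every library. The neutral amino acid transporter Slc7a5 was lower at 1352 ± 43.5 CPM in KO against 1738 ± 55.8 in KO-con. The zinc transporter Slc39a6 was lower at 1071 ± 62.9 CPM in KO against 1743 ± 112 in KO-con. Slc17a9 was also lower against Over-con, at -4.51, while Slc7a5 and Slc39a6 were not called (0.08 and -0.01). Of 60 mitochondrial ribosome transcripts 0 were called in either direction by edgeR, with 2 higher and 7 lower at an unadjusted p under 0.05 and 0 by DESeq2. They had 2 higher calls without KO replicate 1 and 1 lower call without KO replicate 3. Ribosomal protein transcripts had 1 call higher and 3 lower of 60, but 52 of the 60 estimates were below 0 (median -0.13), against 4632 of 9457 over all transcripts. Without KO replicate 3 the lower calls numbered 23, and without KO replicate 3, KO-con replicate 1 or KO-con replicate 2 the higher calls numbered 0. Against Over-con the median was 0.08.

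Matrix proteins and proteases were changed in both directions. Of 41 transcripts, 5 were called higher and 10 lower (median -0.03), with 10 higher without KO replicate 1 and 3 higher without KO replicate 2 or KO-con replicate 1 or 2. Tnc, tenascin C, had 818, 891 and 945 CPM in KO against 411, 487 and 383 in KO-con, with a log2 fold change of 1.05 (SE 0.09, edgeR, adjusted p = 1.34e-06). The metalloproteinase inhibitor Timp3 was higher at 135 ± 6.39 CPM in KO against 78.7 ± 9.08 in KO-con. Plau, the urokinase protease, was higher at 94.1 ± 13.3 CPM in KO against 58.1 ± 5.94 in KO-con. Plaur, its receptor, was lower at 119.8 ± 25.9 CPM in KO against 215 ± 14.7 in KO-con. Mmp3, stromelysin, was lower at 21.8 ± 7.75 CPM in KO against 48.7 ± 7.36 in KO-con. Mmp8, the neutrophil collagenase, was lower at 1.23 ± 0.567 CPM in KO against 6.49 ± 0.645 in KO-con. Against Over-con Tnc (0.97), Timp3 (0.68), Plau (0.96), Plaur (-0.80) and Mmp3 (-1.47) kept direction and call, and Mmp8 was not called (-0.42). Fibroblast markers had 3 of 26 transcripts called higher and 3 lower (median 0.08), and their summed levels overlapped. They had 5 higher calls without KO replicate 3, 1 higher without KO replicate 2 or KO-con replicate 2 or 3, and 0 and 1 lower without KO-con replicate 1 and 3. Col1a1 and Col1a2, the collagen I chains, were not called (-0.12 and 0.04), and the part of the feeder cells in the matrix changes was not tested. Lama5, a laminin chain and the most abundant lower transcript, had 3559.7, 3881 and 3759.6 CPM in KO against 6274, 5392 and 5758 in KO-con, with a log2 fold change of -0.64 (SE 0.08, edgeR, adjusted p = 7.76e-05), and was not called against Over-con (-0.14).

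Lists tied to DNA methylation, chromatin and the germline were read against the 5.83% of all transcripts called higher and 5.96% called lower. Of 16 transcripts of methyltransferases, TET enzymes and their partners, 1 was called higher and 0 lower by edgeR (2 lower at an unadjusted p under 0.05 and 1 by DESeq2, median 0.01). The higher one was Hells, a helicase needed for methylation, at 46.7 ± 2.84 CPM in KO against 36.8 ± 1.06 in KO-con, and its call was lost when any 1 of the KO-con libraries was left out. Without KO replicate 1 or 3 there were 2 higher calls, and without KO replicate 3 or KO-con replicate 2 there was 1 lower. Dnmt1, Dnmt3a, Dnmt3b and Uhrf1, each with several listed transcripts, had too few counts on any of them to be tested. Dnmt1, the maintenance methyltransferase of dividing cells, had at most 6 counts in a library on any of its 5 listed transcripts. Of 5 germ cell and female germline stem cell transcripts tested, 0 were called higher by edgeR (0 at an unadjusted p under 0.05 or by DESeq2) and 1 lower, Prdm1. There was 1 higher without KO replicate 3, and 2 were lower without KO replicate 2. Of 10 tested transcripts of germline genes that methylation silences in other cells, 2 were called higher and 2 lower (1 lower without KO replicate 1, KO replicate 2 or KO-con replicate 3). Tcam1, a testicular cell adhesion gene, was higher at 155 ± 10.1 CPM in KO against 48.8 ± 4.66 in KO-con. Taf7l, a germ cell transcription factor subunit on the X chromosome, was higher at 58.8 ± 4.53 CPM in KO against 40.5 ± 1.59 in KO-con. Xlr3a, an X-linked lymphocyte-regulated gene, was lower at 9.39 ± 0.591 CPM in KO against 65.3 ± 4.44 in KO-con. All 3 kept their direction and call against Over-con (0.62, 0.76 and -3.64). Imprinted genes had 2 of 20 transcripts called higher and 1 lower (median -0.02). The higher calls fell to 0 without KO replicate 2 and to 1 without KO replicate 3 or any 1 of the KO-con libraries. The lower calls numbered 2 without KO replicate 1 and 0 without KO replicate 3, KO-con replicate 1 or KO-con replicate 3. Of 37 chromatin transcripts 2 were called higher (1 without any 1 of the KO-con libraries) and 4 lower (2 without KO-con replicate 1). Cbx2, a Polycomb subunit, was higher at 44.4 ± 1.06 CPM in KO against 33.6 ± 1.22 in KO-con. Lmnb1, lamin B1, was lower at 82.7 ± 5.59 CPM in KO against 120.0 ± 6.07 in KO-con. Of the 8 meiosis and oocyte transcripts tested, 0 were called in either direction by edgeR and 0 by DESeq2 or at an unadjusted p under 0.05, among them Prdm9 (-0.07) and Sycp1 (-0.28). Against Over-con Cbx2 was called higher (0.45), and Hells (0.19) and Lmnb1 (-0.14) were not called.

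Outside these groups, the transcripts with the lowest adjusted p held genes of many kinds. Ngfr, the low-affinity neurotrophin receptor, had 20.7, 28.4 and 19.7 CPM in KO against 1.12, 0.798 and 0.958 in KO-con, with a log2 fold change of 4.58 (SE 0.24, edgeR, adjusted p = 3.26e-09), and was likewise higher against Over-con (4.62). The groups were far apart, with KO-con near the floor. Prelid3a, a mitochondrial lipid transfer protein, was higher at 206 ± 9.99 CPM in KO against 25.3 ± 1.43 in KO-con. Rgs12, a regulator of G protein signalling, was higher at 828 ± 41.5 CPM in KO against 338 ± 17.9 in KO-con. Car6, a secreted carbonic anhydrase, had 69.4, 64.7 and 73.6 CPM in KO against 23.1, 25.5 and 24.3 in KO-con. Nxf7, of the nuclear RNA export family, was higher at 6.88 ± 1.81 CPM in KO against 0.569 ± 0.344 in KO-con. Edn1, the peptide endothelin 1, was higher at 6.24 ± 0.456 CPM in KO against 1.80 ± 0.508 in KO-con. Myl9, a smooth muscle myosin light chain, was higher at 4.4 ± 1.41 CPM in KO against 0.777 ± 0.0508 in KO-con. Sspo, which encodes SCO-spondin, and Myo7b, an unconventional myosin, were higher against KO-con (1.16 and 1.44) but not called against Over-con (0.01 and -0.05). Prelid3a (5.77), Rgs12 (3.64), Car6 (1.33), Nxf7 (2.23), Edn1 (1.46) and Myl9 (1.89) were called higher against Over-con too.

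Among the lower transcripts, Trim71, an RNA-binding E3 ligase that let-7 microRNAs repress, had 2.73, 2.85 and 2.89 CPM in KO against 18.1, 17.1 and 18.8 in KO-con, with a log2 fold change of -2.66 (SE 0.16, edgeR, adjusted p = 2.39e-08), and was lower against Over-con (-1.72). Its KO libraries lay close together, far below every KO-con library. Pde3b, a phosphodiesterase that ends cyclic AMP signals, was at 45.8 ± 0.631 CPM in KO against 108 ± 7.5 in KO-con, and was lower against Over-con as well (-2.60). Akr1c12, an aldo-keto reductase, was at 35.6 ± 3.03 CPM in KO against 97.1 ± 6.92 in KO-con. Its neighbour Akr1c13, a close paralog with which reads may be split, was at 957 ± 68.8 CPM in KO against 1385 ± 71.8 in KO-con. Against Over-con Akr1c12 was not called (-0.18) and Akr1c13 was higher in KO (1.17). Rhag, a Rh-associated glycoprotein of red cells, was at 0.604 ± 0.192 CPM in KO against 7.37 ± 0.935 in KO-con. Rsad2, the antiviral protein viperin, was at 1.44 ± 0.434 CPM in KO against 5.81 ± 0.783 in KO-con. It was 1 of the 3 lower calls among 34 interferon-stimulated transcripts (1 when any KO-con library was left out). Serpina3n, a secreted serine protease inhibitor, had a log2 fold change of -1.27. Rsad2 (-2.06) and Serpina3n (-1.19) were lower against Over-con, and Rhag had too few counts to be tested there. The level of Rhag in Over-con was 0.910 ± 0.282 CPM (normalised over all 12 libraries), nearer to KO than to KO-con.

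Some genes were near the floor in 1 group only. With at most 3 counts in each library of 1 group and at least 10 in each of the other, 7 genes stood out, Gzmb among them. Just outside this rule, Tnfsf4, the gene of OX40 ligand, had 0 counts in each KO library against 11, 11 and 9 counts in KO-con, at least 3.65-fold lower in KO with 3 counts per library as the floor. Cd48, a surface protein shared by blood cells, had 0, 0 and 1 counts in KO against 37, 20 and 26 in KO-con on 1 of its 2 listed transcripts, and the ratio of KO-con to KO was 88.6 (95% exact interval 15.5 to 3542, for counting error only). In the other direction, Selenbp1, a selenium-binding protein, had 16, 22 and 36 counts in KO against 0, 1 and 3. Abcb5, an ABC transporter, had 14, 27 and 20 against 2, 2 and 2. Vmn2r3, a vomeronasal receptor gene, had 12, 12 and 11 against 1, 0 and 1. Vmn2r3 was too low to be tested without KO replicate 2. Ggt5, an enzyme of glutathione breakdown, had 10, 10 and 15 against 2, 3 and 0 on a listed transcript below the filter. Tmcc1 had 12, 17 and 11 against 0, 2 and 3 on 1 of its 2 listed transcripts, which was not tested without KO replicate 2. Its counts summed over the gene gave a log2 fold change of -0.18.

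Called transcripts were spread over the genome. Median log2 fold changes of the autosomes lay between -0.03 (chromosome 7) and 0.03 (chromosome 2), and that of the X chromosome was 0.08, with 33 of 286 transcripts (11.5%) called higher and 16 (5.59%) called lower. The X median was 0.06 without KO replicate 1, 0.11 without KO-con replicate 3 and 0.06 against Over-con. Of 8690 positioned genes 1088 were called in either direction. Among them, 76 runs of neighbouring genes with the same call and gaps under 500000 bases held 157 genes, 38 runs in each direction. With this many calls some neighbours share a call by position alone. The number of such runs was not estimated, so the runs below are given as places only. Osm and Lif lie side by side at chr11:4136423-4172517 in mm9. Cish lies in a run of 3 with Hemk1, a methyltransferase gene that was also lower (121 ± 6.97 CPM in KO against 213 ± 22.2 in KO-con). Serpinb1a, Serpinb9 and Serpinb9b form a run of higher genes at chr13:32933961-33133753. Of these, Serpinb9 lost its call without KO replicate 1 or 3 or KO-con replicate 1 or 2. Serpinb9b, a granzyme inhibitor family member, was at 31.7 ± 4.88 CPM in KO against 13.4 ± 1.98 in KO-con. Over 8310 windows of 20 neighbouring genes the lowest median was -0.23, on chromosome 11, and the highest 0.32, on the X chromosome. Against Over-con Hemk1 was called higher (0.55) and so was Serpinb9b (1.17).

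**Figure D5:**
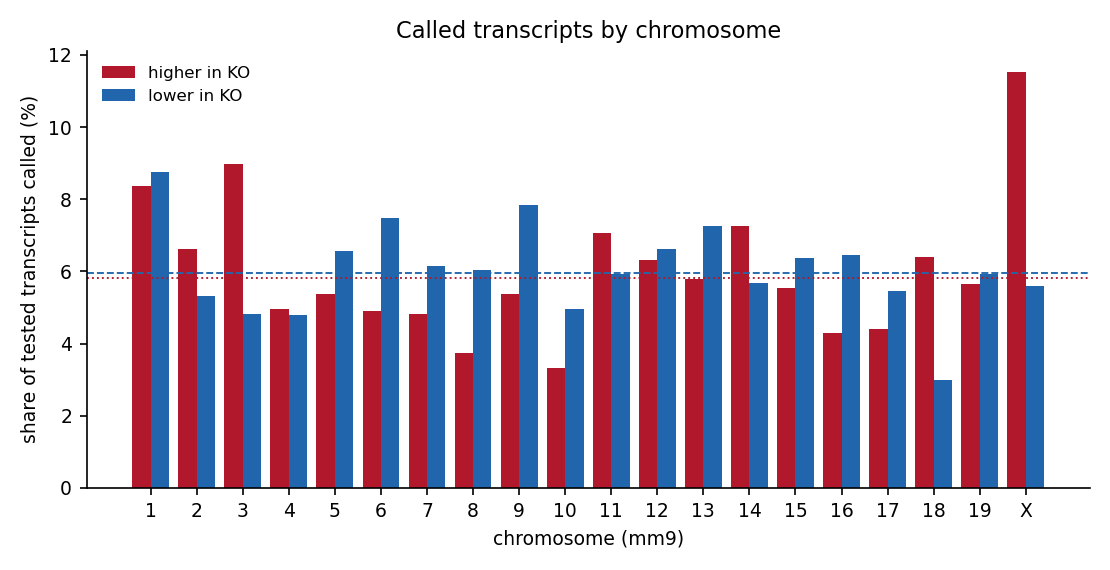
Share of tested transcripts called higher (red) and lower (blue) in KO against KO-con on each chromosome, with the shares over all transcripts as lines (5.83% higher, dotted, and 5.96% lower, dashed). The X chromosome has the highest share of higher calls, 11.5%, and the autosomes' shares of higher calls lie between 3.31% and 8.97%.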

How the data were processed

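RNA-seq of the 3 KO and 3 KO-con libraries was analysed, with the 3 Over-con libraries as an alternative control. Reads were trimmed by the authors and aligned with HISAT2 to mm9, and the authors deposited counts per RefSeq transcript, not normalised. The kit is stranded, but the strand setting of the counting and the treatment of reads shared between transcripts are not given in the sources used here, so overlapping and antisense genes may not be told apart. Groups and replicate numbers came from the sample titles.

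Counts were tested with edgeR 4.0.16 in R 4.3.3 (TMM factors, filterByExpr, glmQLFit, glmQLFTest, Benjamini-Hochberg adjustment over the 9457 transcripts tested). The biological coefficient of variation was 0.0819. CPM of KO and KO-con were normalised over these 6 libraries, and those of Over-con and in the plot of signalling genes over all 12. An exact permutation test of 3 against 3 libraries cannot go below p = 0.1 and was not used. On counts simulated for KO against KO-con with 9419 transcripts, 200 of 200 changed transcripts were recovered with 18 false calls. This recovery was not broken down by size of change or by level. It is therefore no measure of sensitivity for small changes, which made up most of the calls, or for transcripts with few counts. Libraries of a group differed by more than counting noise (chi-square per degree of freedom 3.48 to 12.3).

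Symbols matched for 41186 of 41388 transcripts (RefSeq table of GRCm38.p6), and 38110 had a position in mm9. Of 1898 genes on the lists, 1895 matched. The comparison, its members and the lists were chosen with earlier results of these data known. Named were, in each direction, the 20 DEGs of lowest adjusted p with no overlap between groups, at most 6 called members of each list and the 10 most abundant called genes, and also *Stella*, genes near 0 in 1 group, members of runs of neighbouring genes and cell type markers. Some genes that this rule picks are not reported here. Genes given as not called, Dnmt1 and Clspn were named after their values were seen. Promoters (RefSeq, GRCm38.p6) and guides were searched for exact matches on both strands. Plots used matplotlib 3.10.9 in Python 3.11.15.

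Alternatives were DESeq2 1.42.0 with its own size factors and filter, DESeq2's size factors or library totals in edgeR, no filter, at least 10 counts in every library, counts summed per gene, a joint fit of all 12 libraries, a replicate block, leaving out each library, and Over-con as the control. Replicate numbers showed no pairing of the libraries in expression.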

Additional observations from a re-analysis of the deposited data

How the results depend on the processing

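With Over-con in place of KO-con, 287 transcripts were called higher in KO and 141 were DEGs lower in KO, replication had 0 higher calls by edgeR, mitosis 1 and NRF2 targets 3, and JAK-STAT and blood transcription factors had 3 lower calls each; the cause was not tested. Under that control these named genes had the opposite sign and passed the test: Pim1 (0.37), Pim2 (0.92), Hcls1 (-0.34), Hes1 (1.65), Lyl1 (0.54), Nupr1 (0.38), Hhip (1.21), Akr1c13 (1.17) and Hemk1 (0.55), and Dock2, not called against KO-con, was lower (-0.38). Opposite in sign without passing were Osm (0.14), Mki67 (-0.0090), Lrrc32 (0.78), Ifngr2 (0.019), Mcm4 (-0.15), Rrm1 (-0.028), Tph1 (0.11), Bcl2 (0.060), Cdk6 (0.23), Cish (0.31), Slc7a5 (0.082), Aurkb (-0.058), Ikzf2 (0.014), Il21r (0.39), Myo7b (-0.051), Havcr2 (-0.048), Dtx4 (-0.19), Slc18a2 (-0.19) and Tnfrsf21 (0.044). With counts summed per gene, Tmcc1 was at -0.18. With at least 10 counts in every library, fewer low transcripts were tested and DEGs numbered 50 higher and 53 lower. Leaving out 1 library at a time gave 280 to 634 higher and 333 to 637 lower calls, 63 to 82 and 68 to 91 DEGs, 7 to 12 replication, 11 to 16 mitosis and 6 to 8 NRF2 higher calls, 5 to 8 NF-kB, 7 to 8 JAK-STAT, 9 to 13 early response and 6 to 11 blood factor lower calls, and X medians of 0.057 to 0.11. Deviations from the group means correlated at -0.11, -0.07 and -0.06 between KO and KO-con libraries of the same number, so no pairing by number was seen in expression. Whether libraries of the same number were processed together is not given in the sources used here. The replicate block gave 389 higher and 448 lower calls. DESeq2 gave 429 and 549 calls and 55 and 63 DEGs. Of 346 called genes on the lists or named by the rule, 290 were still called by DESeq2, 29 of the others having no value there, 305 with the block, 330 with library totals and 130 against Over-con.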
